A study of Mus musculus with 10 samples.

Results

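Chromatin looping and the choice between alternative protocadherin promoters depend on a small set of factors, and the expression of 10 of their genes was followed here across neurons that had lost either of a pair of silencing proteins. The 10 genes, Ctcf, Rad21, Smc1a, Smc3, Stag1, Stag2, Nipbl, Wapl, Smchd1 and Wiz, were listed by name, with no threshold on measured values, and all 10 were found among the 54532 genes of the count files. RNA from NeuN+ neuronal nuclei, sorted by FACS from the brains of adult C57BL/6J mice, was sequenced in 10 libraries. Control libraries 1 to 3 came from Mphosph8fl/fl Nestin-Cre- mice and control libraries 4 and 5 from Morc2afl/fl Nestin-Cre- mice. The Mphosph8Δ/Δn libraries (n = 3) came from Mphosph8fl/fl Nestin-Cre+ mice and the Morc2aΔ/Δn libraries (n = 2) from Morc2afl/fl Nestin-Cre+ mice. MPP8, the product of Mphosph8, is a subunit of the HUSH silencing complex, and MORC2A is an ATPase that works with HUSH. Nestin-Cre is active in neural progenitors, so each deletion affected the neurons and glia derived from them. No control carried the Cre transgene without a floxed target, so an effect of the transgene cannot be told apart from an effect of the deletion.

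Cohesin is a ring of SMC1A, SMC3 and the kleisin RAD21, to which either STAG1 or STAG2 is bound. NIPBL loads the ring onto DNA and drives the extrusion of loops, WAPL releases it, and the zinc finger protein CTCF, bound to DNA, halts it and so sets the ends of loops. In neurons, CTCF and cohesin bring the distal enhancers of the clustered protocadherins to the stochastically chosen promoters. SMCHD1, a non-canonical SMC protein, takes part in silencing of the inactive X chromosome and of clustered genes including protocadherins, and WIZ is a zinc finger partner of the histone methyltransferases G9a and GLP that also binds near CTCF sites. The study asked how loss of HUSH or MORC2A changes neuronal gene expression. The comparison described here asks whether the RNA of these architectural factors changed with it.

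Promoter windows of 300 bases, from 250 before to 50 after the annotated start, were held by the RefSeq table of GRCm38.p6 for 7 of the 10 genes, with 4 windows for Wiz and 1 each for Ctcf, Smc1a, Smc3, Smchd1, Stag1 and Wapl. The windows had between 3 and 47 CpG dinucleotides (median 32), where the median was 13 over the 21263 windows of protein-coding genes (quartiles 4 and 24). The Ctcf window, with 75.3% G and C, held the most CpGs. The longest run of bases that windows of any 2 different members had in common, read in the direction of transcription, was 16 bases, between Ctcf and Smc3. These windows are shown because they carry that run, which is in capitals, at bases 255 to 270 of the Ctcf window (chr8:105636288-105636587, GRCm38.p6, plus strand) and at bases 245 to 260 of the Smc3 window (chr19:53600146-53600445, plus strand), counted from 1 at the 5′ end.
Ctcf: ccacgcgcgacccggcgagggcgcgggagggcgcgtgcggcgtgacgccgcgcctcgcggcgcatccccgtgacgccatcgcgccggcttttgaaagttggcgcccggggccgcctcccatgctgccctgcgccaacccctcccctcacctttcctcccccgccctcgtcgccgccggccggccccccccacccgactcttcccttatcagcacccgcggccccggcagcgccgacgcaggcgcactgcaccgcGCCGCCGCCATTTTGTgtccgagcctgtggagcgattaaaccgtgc
Smc3: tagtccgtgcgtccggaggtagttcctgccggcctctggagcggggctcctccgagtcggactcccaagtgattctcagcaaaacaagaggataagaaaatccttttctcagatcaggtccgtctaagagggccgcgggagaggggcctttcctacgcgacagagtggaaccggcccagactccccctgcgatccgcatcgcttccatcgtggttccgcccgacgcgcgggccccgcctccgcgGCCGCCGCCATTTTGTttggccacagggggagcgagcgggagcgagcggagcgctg
The run was in 3 of all 32851 windows on either strand (0.00913%). It was found by comparing the windows and was not searched for beforehand, and no function is assigned to it. Short words of 9 letters were searched for on both strands of all windows: AGGGGGCGC and AGGTGGCAG, taken from the CTCF motif, AAGATGGCG, from the YY1 motif, and GCGCATGCG, from the NRF1 motif. They occurred in 1.25%, 0.782%, 1.40% and 1.75% of all windows and in 0 of the 10 windows of the members. Only these exact spellings were counted, so other spellings of the same motifs were not. Read on the other strand, the shared run holds a word that differs by 1 letter from that of YY1.

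The libraries held between 6686038 and 10764555 counts, and 18573 genes were tested. Levels are given as CPM, counts normalised to the size of the library, with TMM scaling for library composition. Rbfox3, which encodes NeuN, was present in every library (between 150.0 and 304 CPM), while markers of microglia summed to 18.3 to 33.5 CPM and those of endothelial cells to 2.83 to 6.46 CPM. Glial RNA was present in all libraries, with sums of 545 to 967 CPM for oligodendrocyte and 312 to 579 CPM for astrocyte markers. Markers of cerebellar granule neurons set 3 libraries apart. Gabra6, a receptor subunit of these neurons, was at 104 CPM in control library 4 and at 49.4 and 74.4 CPM in Mphosph8Δ/Δn libraries 1 and 2, against 0.0 to 5.71 CPM in the other 7. The targeted genes did not check the labels: the log2 fold change was -0.34 (SE 0.23, adjusted p = 0.967, edgeR) for Mphosph8 in Mphosph8Δ/Δn and 0.64 (SE 0.14, adjusted p = 0.0916, edgeR) for Morc2a in Morc2aΔ/Δn libraries. Morc2a was at 215 and 223 CPM in the latter, above every control (122 to 163 CPM). The study reported loss of both genes from qRT-PCR and immunoblots of whole brains. It also measured the RNA of both genes by qRT-PCR in sorted NeuN+ nuclei of controls and both knockouts. Exon 4, the exon flanked by loxP sites, was not looked at separately in these counts over the whole gene.

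All 10 members were expressed in control nuclei, with at least 104 counts in every control library, and all 10 passed the filter on low counts. To compare genes with each other, levels were expressed per length of exon as TPM (length-scaled counts relative to their sum). On this scale, Rad21 was highest, at 60.3 ± 8.32 TPM (SD, n = 5), followed by Smc1a at 52.1 ± 5.29, Stag1 at 43.9 ± 6.33 and Ctcf at 43.7 ± 3.37 TPM. The ranges of these neighbours overlapped. Nipbl, with 33.6 ± 5.10 TPM, lay below Ctcf without overlap, and Smc3 was at 33.3 ± 5.68 TPM. Stag2 followed at 20.4 ± 2.23 TPM, again without overlap with the gene before it. Wapl, at 15.9 ± 4.54, and Smchd1, at 13.5 ± 2.55 TPM, overlapped, and Wiz was lowest at 7.64 ± 1.97 TPM, below every control library of Smchd1. Thus only 3 of the 9 steps in this order were wider than the spread of the control libraries.

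**Figure D1:**
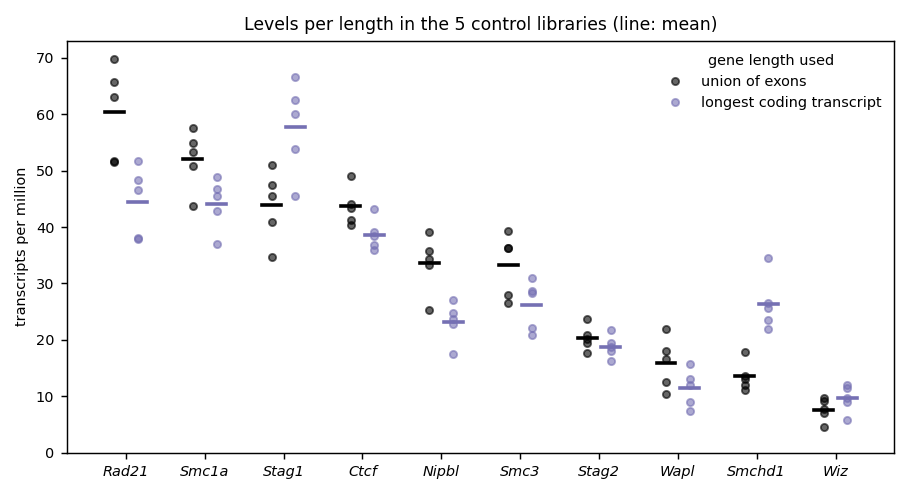
TPM (vertical axis) of the 10 genes in the 5 control libraries, one point per library with the mean as a line, computed with the union of exons (black) and with the longest coding transcript (violet) as gene length. The means run from 60.3 for Rad21 to 7.64 for Wiz with the union of exons, and Stag1 and Smchd1 stand higher with the shorter length.

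The order depended on the length assigned to a gene. Smchd1 has 19982 bases in the union of its exons and 7052 in its longest coding transcript, and its control level was 26.4 TPM with the latter, which moved it from the ninth to the fifth place. Stag1, with 11781 and 6186 bases, moved to the top at 57.6 TPM. The rank of a long gene with many isoforms is therefore uncertain, whereas comparisons of one gene between libraries do not use the length.

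Between libraries, Stag2 was the steadiest member, with a coefficient of variation of 11.9% over all 10 libraries and levels from 34.5 to 46.8 CPM. Wapl and Wiz varied most, by 25.2% and 24.5%, and had the lowest counts of the set. The highest library of Wapl had 2.26 times the CPM of the lowest, and for Wiz this ratio was 2.06. Part of the exonic bases of Wiz, 22.7%, lie opposite to other annotated genes, mostly Gm26858, which was listed at 0 counts in all libraries. Whether reads were counted by strand is not given in the sources used here, so reads in these bases may be missing from the count of Wiz.

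**Figure D2:**
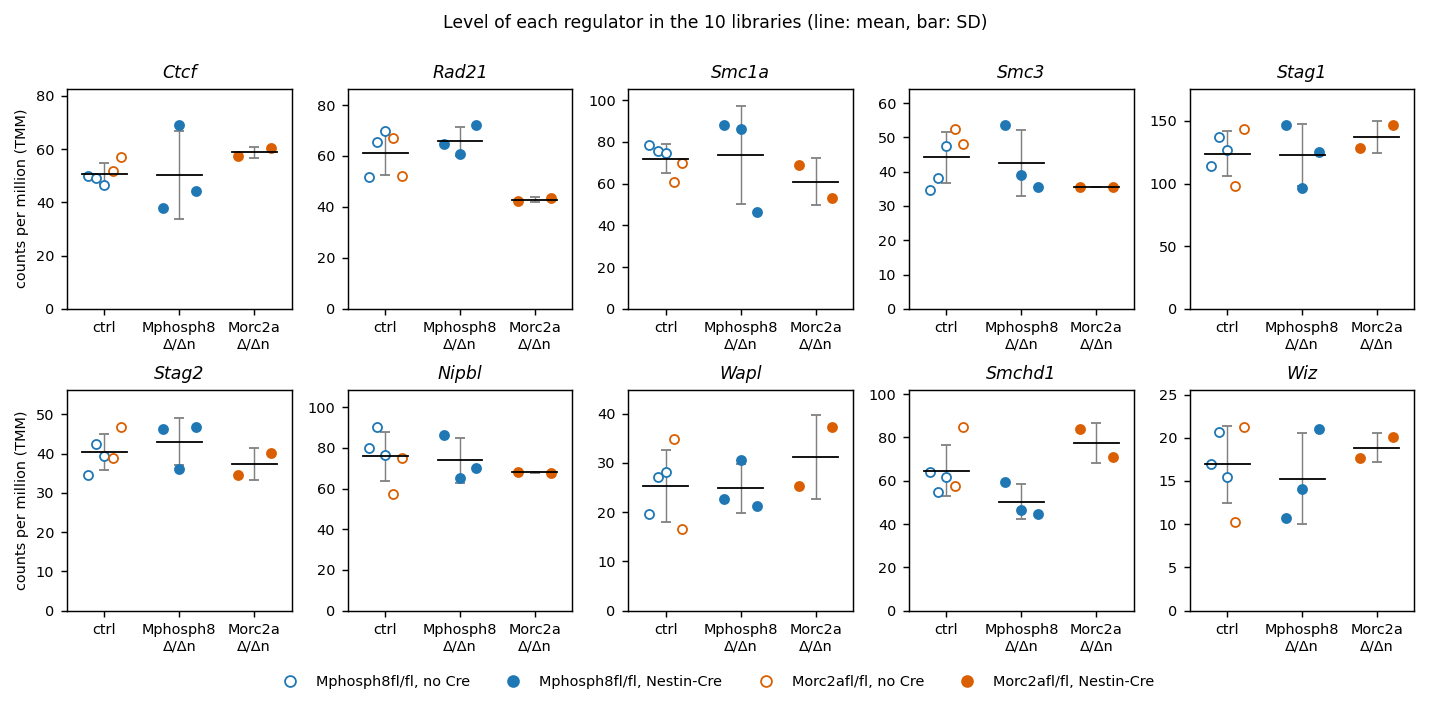
CPM after TMM scaling (vertical axes, from 0) of each of the 10 genes in every library, with group means as lines and SD as bars. Open points are Cre-negative and filled points Nestin-Cre-positive, blue Mphosph8fl/fl and orange Morc2afl/fl. In Morc2aΔ/Δn both Rad21 points (42.3 and 43.5) lie below, and both Ctcf points (57.4 and 60.3) above, every control.

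Loss of MPP8 was accompanied by no called change in any of the 10 genes. By edgeR's quasi-likelihood test, with p-values adjusted by the Benjamini-Hochberg method over 18573 genes, 0 members passed an adjusted p of 0.05 (lowest 0.887 for Smchd1), 0 reached an unadjusted p of 0.05, and DESeq2 called 0 as well. Of all genes tested, 0.113% were called in this comparison, and 5.67% reached an unadjusted p of 0.05 in edgeR. The 3 Mphosph8Δ/Δn libraries overlapped with the controls for all 10 genes, where 4.57% of all tested genes lay beyond every control on one side. The median size of the log2 fold change was 0.04 for the members and 0.21 for all genes tested. These sets were not matched by level: every member had at least 103 counts in each library, while some genes tested had under 10. The 95% intervals lay within 1 on the log2 scale, a change of 2-fold, for all 10 genes and within 0.6 for 8 of them. The study describes its replicates as biological, while the labels do not tie single libraries to animals, and all p-values measure the spread between these libraries. Without the 3 libraries high in cerebellar granule markers, which leaves Mphosph8Δ/Δn library 3 alone in its group, 0 members were called in either knockout, and the member farthest from 0 in Mphosph8Δ/Δn was Smc1a, at -0.69 on the log2 scale (adjusted p = 0.423, edgeR). In bulk nuclei, fewer cells of a type and less RNA per nucleus cannot be told apart.

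CTCF itself was at 49.9, 49.3, 46.3, 51.7 and 56.9 CPM in control libraries 1 to 5 and at 37.8, 68.9 and 44.2 CPM in Mphosph8Δ/Δn libraries 1 to 3. The lowest and the highest Ctcf values of all 10 libraries were thus both found in this knockout. The log2 fold change of -0.01 had an interval from -0.41 to 0.38. It was -0.30 without Mphosph8Δ/Δn library 2 and 0.16 without library 1.

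Among the ring subunits, Rad21, the kleisin that closes the ring, had 51.6, 65.4, 69.6, 66.9 and 52.1 CPM in control and 64.6, 60.7 and 72.0 CPM in Mphosph8Δ/Δn libraries. These ranges overlapped, and its log2 fold change was 0.10 (interval -0.23 to 0.43). Smc1a had 78.6, 75.5, 74.7, 60.7 and 70.0 CPM in control and 88.0, 86.3 and 46.6 CPM in Mphosph8Δ/Δn libraries. Its knockout values lay on both sides of the control range, with a coefficient of variation of 31.8% against 9.74% in control, and Ctcf likewise spread by 32.7% against 7.68%. The spread was smaller than in control for Rad21 (8.76% against 14.0%), Nipbl, Wapl and Smchd1, and larger for the other members. Smc3, the partner of SMC1A in the ring, ranged from 34.7 to 52.4 CPM in control (median 47.5) and from 35.4 to 53.5 CPM in Mphosph8Δ/Δn libraries, a log2 fold change of -0.05.

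The STAG subunits, which help to place and hold cohesin on DNA, overlapped with control as well. Stag1 had a median of 126 CPM in control (98.3 to 143) and 125 CPM in Mphosph8Δ/Δn libraries (96.8 to 146). Stag2 had medians of 39.3 CPM (34.5 to 46.8) and 46.3 CPM (36.2 to 46.7), with log2 fold changes of -0.01 for Stag1 and 0.09 for Stag2. The loader gene Nipbl, at 57.4 to 90.3 CPM in control, was at 65.2 to 86.2 CPM after Mphosph8 deletion (log2 fold change -0.04). The release factor gene Wapl, at 16.5 to 34.9 CPM in control, was at 21.3 to 30.5 CPM (log2 fold change -0.03), with a wider interval from -0.57 to 0.51.

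Smchd1 had the smallest p among the members in this comparison. It was at 64.1, 54.8, 61.9, 57.8 and 84.8 CPM in control and at 59.5, 46.7 and 44.6 CPM in Mphosph8Δ/Δn libraries. Thus 2 of the 3 knockout libraries lay below every control and the third within their range, while control library 5 stood above the others. Its log2 fold change was -0.36 (SE 0.17, interval -0.73 to 0.01), with an unadjusted p of 0.0531 and an adjusted p of 0.887 from edgeR. Against the 3 Mphosph8fl/fl controls alone the log2 fold change was -0.26 (adjusted p = 0.989, edgeR). Wiz, at 10.3 to 21.2 CPM in control and 10.7 to 21.01 CPM in the knockout libraries, had a log2 fold change of -0.15 and the widest interval, from -0.75 to 0.46.

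Loss of MORC2A was accompanied by larger fitted differences, of which none was called. The lowest adjusted p was 0.317, for Rad21 (edgeR's quasi-likelihood test), and 0 of 10 members were called by edgeR, DESeq2 or limma-voom, where 0.0861% of all genes were called in edgeR. Rad21 was the only member with an unadjusted p under 0.05 in this comparison, a level reached by 10.7% of all genes. The median size of the log2 fold change was 0.23 for the members and 0.30 for all genes, which were not matched to them by level. All 10 intervals lay within 1 on the log2 scale. In 2 of the 10 genes both Morc2aΔ/Δn libraries lay beyond every control, Rad21 below and Ctcf above. With 2 knockout libraries this was true of 15.4% of all tested genes, so that about the same share of the members lay outside as of genes in general.

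Rad21 had 42.3 and 43.5 CPM in the Morc2aΔ/Δn libraries, below the lowest control value of 51.6 CPM and well below the Mphosph8Δ/Δn values of 60.7 to 72.0 CPM. The log2 fold change was -0.51 (SE 0.19, interval -0.91 to -0.12), that is 0.701 times the control level, with an unadjusted p of 0.0133 in edgeR. Against the 2 controls of the Morc2a floxed line it was -0.47 (unadjusted p 0.0444, adjusted p = 0.541, edgeR). Over 21 alternative analyses the log2 fold change stayed between -0.58 and -0.45 and the adjusted p, from edgeR or the tool that replaced it, between 0.106 and 0.636. The RNA of general neuron markers was also lower in these libraries, with a sum over 8 genes of 3628 and 4293 CPM against 4593 to 5343 CPM in control and 4617 to 4986 CPM in Mphosph8Δ/Δn. Of these 8 genes, 0 were called, and their median log2 fold change was -0.35. Snap25, at 1376 and 1381 CPM against 1805 to 1996 CPM in control, and Syt1 made up most of this sum, while Map2, at 664 and 517 CPM against 395 to 590 CPM, and Rbfox3, at 280 and 251 CPM against 150.0 to 274 CPM, were not lower. Inhibitory neuron markers summed to 1147 and 1407 CPM against 1500 to 1890 CPM in control. Markers of midbrain and hindbrain neurons summed to 141 and 167 CPM against 174.5 to 225 CPM. The sums for oligodendrocytes (545 to 672 CPM against 739 to 964) and their precursors (44.5 to 62.3 CPM against 66.1 to 75.0) were also below control. Most of the precursor sum was Olig1, at 49.1 and 26.1 CPM against 46.0 to 59.35 CPM in control. The sums of the remaining marker lists overlapped with control. The part of these markers in the Rad21 value was not tested.

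The SMC partners in the ring lay on the same side in Morc2aΔ/Δn, without passing the test. Smc3 had 35.5 and 35.4 CPM, within the range of all 5 controls (34.7 to 52.4) but below both controls of the same line, which had 52.4 and 48.0 CPM. Its log2 fold change was -0.32 against all controls (interval -0.79 to 0.16) and -0.50 against its own line (unadjusted p 0.0643, edgeR). Smc1a, at 69.0 and 52.9 CPM, had a log2 fold change of -0.24 (interval -0.71 to 0.23), and 1 of its 2 values lay below every control.

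Ctcf was at 57.4 and 60.3 CPM in Morc2aΔ/Δn libraries, above the highest control value of 56.9 CPM. The step above that control was small, and Mphosph8Δ/Δn library 2 (68.9 CPM) was higher still. The log2 fold change was 0.21 (interval -0.23 to 0.66, adjusted p = 0.785, edgeR). Of the exonic bases of Ctcf, 9.96% lie opposite to Agrp and Gm5914. The latter was higher in the Morc2aΔ/Δn libraries too, at 12.3 and 8.88 CPM against 3.89 to 7.03 CPM in control, and its part in the Ctcf value was not tested.

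The remaining members did not pass the test, and their Morc2aΔ/Δn libraries overlapped with control. Stag1 had 128 and 147 CPM in Morc2aΔ/Δn libraries (log2 fold change 0.15) and Stag2 had 34.5 and 40.2 CPM (-0.11). Nipbl, at 68.3 and 67.9 CPM, had a log2 fold change of -0.15. Wapl, at 25.2 and 37.3 CPM, had a log2 fold change of 0.30, with an interval from -0.30 to 0.91. It was -0.01 without Morc2aΔ/Δn library 2 and 0.56 without library 1. Smchd1, at 83.8 and 70.8 CPM, had a log2 fold change of 0.26, opposite in sign to that in Mphosph8Δ/Δn, and Wiz, at 17.7 and 20.0 CPM, had one of 0.16.

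**Figure D3:**
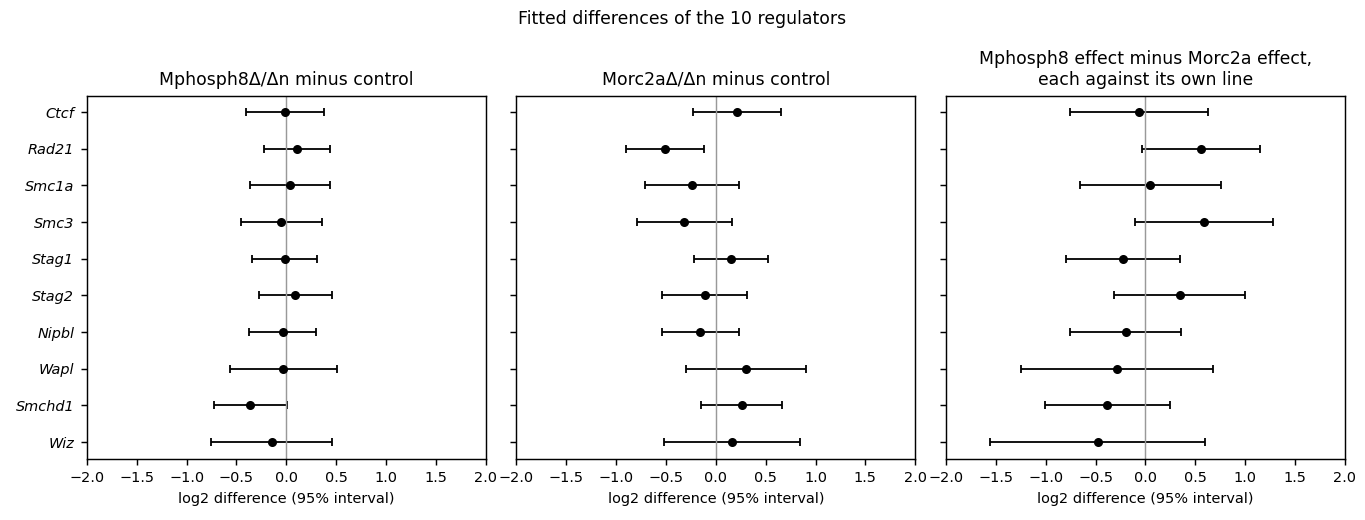
Log2 differences (horizontal axes) of the 10 genes with 95% intervals derived from the edgeR test, for Mphosph8Δ/Δn minus control, Morc2aΔ/Δn minus control, and the difference between both knockout effects within lines. In the first and the third panel all intervals include 0. In the second, Rad21 (-0.51, interval -0.91 to -0.12) alone excludes it, before adjustment for the 18573 genes tested.

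Whether both deletions acted differently on a gene was tested as an interaction, in which every knockout was set against Cre-negative libraries with the same floxed allele, so that no control was shared. Of the members 0 were called (lowest adjusted p = 0.653, edgeR), 0 had an unadjusted p under 0.05, and DESeq2 called 0. Across all genes edgeR called 0.0% here, with 1476 genes (7.95%) at an unadjusted p under 0.05 and 64 called by DESeq2. The largest differences in favour of Mphosph8Δ/Δn were those of the ring subunits Smc3, at 0.59 (interval -0.10 to 1.28), and Rad21, at 0.55 (interval -0.04 to 1.15). Wiz had a difference of -0.48 (interval -1.56 to 0.60), which was -1.07 without control library 5, -0.03 without control library 4 and 0.41 without the 3 libraries high in cerebellar granule markers. Smc3 and Rad21 stood at 0.24 and 0.48 without those 3. Wapl, at -0.28, was at -0.92 without control library 4, 0.17 without control library 5 and -1.17 without those 3. Only 5 of the 10 intervals lay within 1 on the log2 scale, and those of the other 5 genes reached past a 2-fold difference between the knockout effects.

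The floxed lines themselves were compared among the Cre-negative controls, 3 of the Mphosph8fl/fl and 2 of the Morc2afl/fl line. Here too 0 members were called (lowest adjusted p = 0.651 for Nipbl, edgeR), 0 had an unadjusted p under 0.05 and DESeq2 called 0. Of all genes, edgeR called 0.172%, and 9.21% had an unadjusted p under 0.05. Nipbl was at 79.9, 90.3 and 76.4 CPM in Mphosph8fl/fl and at 57.4 and 75.01 CPM in Morc2afl/fl controls, a log2 difference of 0.31 (interval -0.08 to 0.71). Smc3 lay lower in the Mphosph8fl/fl controls, at 34.7, 38.1 and 47.5 CPM against 52.4 and 48.0 CPM (log2 difference -0.32). The values of Ctcf, lower, and Smc1a, higher in Mphosph8fl/fl, did not overlap between the lines either, and the other 6 members overlapped. With 3 against 2 libraries, 29.2% of all tested genes did not overlap, a share near that of the members (4 of 10). For Smc3 in Morc2aΔ/Δn, the comparison within the line therefore gave a larger difference than that with all controls.

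Ratios within a library do not depend on its scaling, and 3 of them were formed from reads per kilobase of exon. Their size depends on the gene length used, here the union of exons, while log2 differences between libraries do not. In control, Stag1 and Stag2 had means of 43.9 and 20.4 TPM with this length. With the longest coding transcript they had 57.6 and 18.8 TPM. The ratio of Stag1 to Stag2, the alternative subunits of both cohesin forms, was 2.33, 2.26, 2.26, 1.78 and 2.15 in control libraries 1 to 5. It was 2.22, 1.88 and 1.88 in Mphosph8Δ/Δn and 2.61 and 2.56 in Morc2aΔ/Δn libraries. Both Morc2aΔ/Δn values lay above every control, with a log2 difference of 0.27. In a two-sided exact permutation test this gave p = 0.0952, the smallest that 2 against 5 libraries allow, and 0.571 after adjustment over the 6 tests of ratios, so this design could not pass 0.05 whatever the values. For Mphosph8Δ/Δn the log2 difference was -0.11 (exact permutation p = 0.464, adjusted 0.929), where 3 against 5 libraries could reach 0.0357 before adjustment. Control library 4, whose ratio was the lowest of all, was also the library highest in Gabra6 (104 CPM), while Mphosph8Δ/Δn libraries 2 and 3, both with a ratio of 1.88, had 74.4 and 4.66 CPM. The part of granule neuron RNA in the ratio was not tested.

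**Figure D4:**
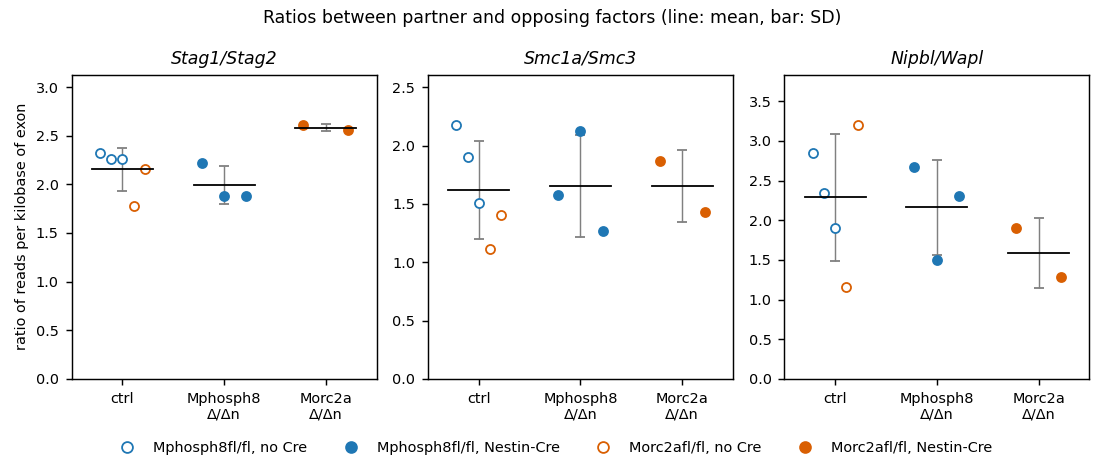
Ratios of reads per kilobase of exon (vertical axes, from 0) of Stag1 to Stag2, Smc1a to Smc3 and Nipbl to Wapl in each library, with group means as lines and SD as bars. Open points are Cre-negative and filled points Nestin-Cre-positive, blue Mphosph8fl/fl and orange Morc2afl/fl. Both Morc2aΔ/Δn points for Stag1 to Stag2 (2.61 and 2.56) lie above all controls (1.78 to 2.33), and the other ratios overlap.

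The ratio of Smc1a to Smc3, the paired arms of the ring, ranged from 1.11 to 2.17 in control, from 1.26 to 2.13 in Mphosph8Δ/Δn and from 1.43 to 1.87 in Morc2aΔ/Δn libraries. The groups overlapped (exact permutation p = 0.893 and 0.952). The ratio of Nipbl to Wapl, loader to release factor, ranged from 1.155 to 3.20 in control, from 1.501 to 2.67 in Mphosph8Δ/Δn and from 1.28 to 1.90 in Morc2aΔ/Δn libraries. Its control libraries were the most spread of the 3 ratios, and the log2 differences of -0.04 and -0.47 had exact permutation p-values of 0.929 and 0.381.

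Other genes of the same machinery were taken from lists of known function. Of 10 cohesin regulators, 8 had enough counts to be tested, and 0 were called in either knockout (Cdca5 and Sgo1 were not tested). Their median log2 fold change was -0.12 in Mphosph8Δ/Δn and -0.25 in Morc2aΔ/Δn, against -0.01 for all genes in both. The one that came nearest to a call was Esco1, which encodes an acetyltransferase that acetylates SMC3 and thereby protects bound cohesin from WAPL. Esco1 had 41.0, 29.0, 35.6, 17.8 and 17.7 CPM in control libraries 1 to 5. It had 36.0, 27.4 and 28.6 CPM in Mphosph8Δ/Δn and 5.22 and 9.19 CPM in Morc2aΔ/Δn libraries, from 49 and 89 counts. Both Morc2aΔ/Δn values thus lay below every other library, and both Morc2afl/fl controls lay below the 3 controls of the other line.

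**Figure D5:**
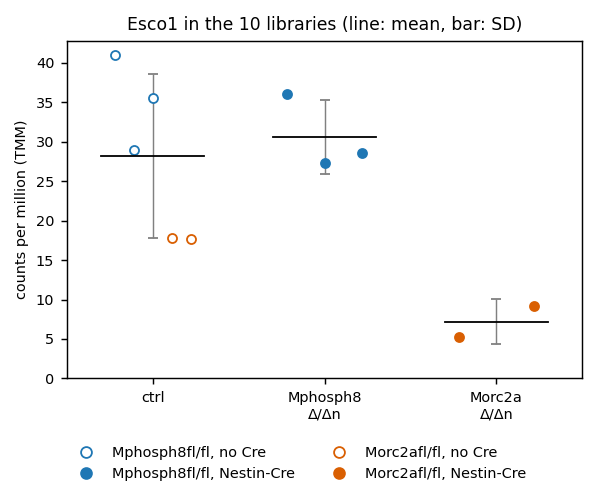
CPM of Esco1 after TMM scaling (vertical axis, from 0) in each library, with group means as lines and SD as bars, symbols as in the plot of the 3 ratios. The Morc2aΔ/Δn libraries (5.22 and 9.19) are the lowest, the Cre-negative Morc2afl/fl libraries (17.8 and 17.7) come next, and all 6 Mphosph8fl/fl libraries are at 27.4 or above.

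The log2 fold change of Esco1 in Morc2aΔ/Δn was -1.97 (SE 0.38, unadjusted p 6.97e-05), with an adjusted p of 0.0528 in edgeR, just short of the threshold. It passed in 7 of 21 alternatives, among them DESeq2 (adjusted p = 4.91e-05) and edgeR without control library 4 or 5 (adjusted p = 0.032 and 0.0234). DESeq2 was far more permissive here, with 309 genes called in all for Morc2aΔ/Δn against 16 in the main edgeR fit. Control libraries 4 and 5, the only controls of the Morc2a floxed line, had the lowest Esco1 of the controls. Leaving out either thus shifted the comparison towards the other line. The replicate block, also among the 7, used neither of these libraries for its estimate. Against the controls of its own line the log2 fold change was -1.30 (SE 0.33, adjusted p = 0.225, edgeR). The Mphosph8fl/fl controls exceeded the Morc2afl/fl controls by 0.99 on the log2 scale (SE 0.29, adjusted p = 0.262, edgeR), and the difference between both knockout effects was 1.10 (adjusted p = 0.519, edgeR). Esco1 RNA thus stood lower both in the Morc2a floxed line and, within it, in the libraries with Cre, and neither of these steps passed the test by itself. In Mphosph8Δ/Δn its log2 fold change was 0.12 (adjusted p = 0.997, edgeR).

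Pttg1, which encodes securin, the inhibitor of the protease that cleaves RAD21, ranged from 0.89 to 59.2 CPM in control and had 1.65 and 20.7 CPM in Morc2aΔ/Δn libraries (log2 fold change -1.95, SE 0.90, adjusted p = 0.448, edgeR). Its control libraries spread so far that the groups overlapped. With all genes of at least 1 count tested, Pttg1 was called in Morc2aΔ/Δn and between the control lines, and in no other alternative. Mau2, the partner of NIPBL in the loader, had log2 fold changes of -0.22 in Mphosph8Δ/Δn and 0.15 in Morc2aΔ/Δn. Between the control lines it had a log2 difference of -0.51 (adjusted p = 0.308, edgeR). Among the 5 other regulators tested, Pds5a and Pds5b, which encode proteins bound to cohesin, had log2 fold changes of 0.19 and 0.25 in Morc2aΔ/Δn, and Hdac8, which encodes the deacetylase of SMC3, had one of -0.41 in Mphosph8Δ/Δn. Esco2, the paralogue of Esco1 of dividing cells, had 0 to 39 counts per library.

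The meiotic cohesin subunits were low, with the exception of Rec8. Of 4 genes 3 were tested and 0 called. Rec8, the meiotic kleisin, had 27.3 to 58.6 CPM in control, 42.5 to 51.9 CPM in Mphosph8Δ/Δn and 10.2 to 36.7 CPM in Morc2aΔ/Δn libraries (log2 fold changes 0.35 and -0.64). Stag3, the meiotic STAG subunit, had 0.655 to 3.17 CPM in control and log2 fold changes of 0.56 and 0.97, Smc1b, with 8 to 45 counts per library, had -0.33 and -0.55, and Rad21l had 0 to 5 counts per library and was not tested. Of 7 CTCF partners and other architectural factors, 5 were tested and 0 called. Chd8, a chromatin remodeller that binds CTCF, had 100.1 to 122 CPM in control and 123 and 159 CPM in Morc2aΔ/Δn libraries (log2 fold change 0.32, adjusted p = 0.466, edgeR). Zfp143, a zinc finger factor found at loop anchors, had log2 fold changes of -0.46 and -0.50, and Maz, a zinc finger factor with only 4 to 48 counts per library, had -0.37 and 0.37. Ctcfl, the germline paralogue of Ctcf, had 0 to 3 counts per library and Adnp 0 to 15, and both were not tested.

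Of 5 genes for other SMC proteins and the partner of SMCHD1, 0 were called, with median log2 fold changes of 0.17 and 0.34 in comparisons that share the same controls. Smc5, of the SMC5/6 complex, had the smallest p, with 37.1 to 81.7 CPM in control, 73.2 to 76.1 CPM in Mphosph8Δ/Δn and 76.7 to 103 CPM in Morc2aΔ/Δn libraries (log2 fold changes 0.31 and 0.59, adjusted p = 0.967 and 0.388, edgeR). Lrif1, whose product binds SMCHD1, had log2 fold changes of 0.22 and 0.34. Between the control lines Smc6 had a log2 difference of -0.44 (adjusted p = 0.444, edgeR), and Smc2, a condensin subunit, had 0.17 and 0.25 in the knockouts. Of the 3 genes for WIZ partners, Ehmt1, Ehmt2 and Zfp644, 0 were called. Zfp644, which encodes a zinc finger partner of WIZ, had 56.9 to 66.2 CPM in control, 66.7 to 72.4 in Mphosph8Δ/Δn and 79.5 to 82.0 CPM in Morc2aΔ/Δn libraries (log2 fold changes 0.15 and 0.38, adjusted p = 0.987 and 0.366, edgeR). The methyltransferase genes Ehmt1 and Ehmt2 had log2 fold changes of -0.11 and -0.06 in Mphosph8Δ/Δn and 0.08 and 0.05 in Morc2aΔ/Δn. Of 8 genes for writers, readers and erasers of DNA methylation, all were tested and 0 called. Dnmt3a, which encodes a de novo methyltransferase, had 292 to 354 CPM in control and 376 to 386 CPM in Morc2aΔ/Δn libraries (log2 fold change 0.21, adjusted p = 0.546, edgeR). The demethylase genes Tet1 and Tet2 had log2 fold changes of 0.17 and 0.39 in Morc2aΔ/Δn. Uhrf1, with 1 to 55 counts per library, had a log2 fold change of 1.48 in Mphosph8Δ/Δn (adjusted p = 0.967, edgeR), and Dnmt3b, with 2 to 61 counts, had -0.20 there.

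The pattern of Ctcf over the 10 libraries was compared with that of every gene tested, by the root mean square difference of log2 levels (CPM plus 0.5) after centring. Among the nearest genes were Rps28, a ribosomal protein gene, at 0.0863, and Sft2d3 at 0.0954. Among the other members the nearest was Smchd1, at 0.333, which stood at place 5142 of all genes, and the farthest was Rad21, at 0.436. The members were thus not among the genes nearest to Ctcf, and no shared function or control follows from nearness in so few libraries.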

How the data were processed

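RNA of NeuN+ nuclei was sequenced in 10 libraries (control n = 5, Mphosph8Δ/Δn n = 3, Morc2aΔ/Δn n = 2). The authors enriched poly(A) RNA, trimmed reads with Trim Galore 0.5.0, removed abundant sequences with Bowtie2 2.3.4.1, aligned to GRCm38 with STAR and counted reads in genes with featureCounts (Subread 1.6.2). The strand setting and the treatment of reads over several genes are not given in the sources used here. The deposited values are raw counts per gene without normalization.

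The members and lists were chosen with earlier results of these data known. Counts were tested in edgeR 4.0.16 (R 4.3.3) with filterByExpr, TMM and a quasi-likelihood fit of 3 groups (common dispersion 0.141), or of 4 groups, line by Cre, for lines and interaction. P-values were adjusted by Benjamini-Hochberg over 18573 genes and called under 0.05. edgeR gives no SE for this test, so SEs were computed from the log2 fold change and the F statistic. The 95% intervals were formed from these SEs with quantiles of the t distribution. TPM used exon lengths of GENCODE M21. Ratios were compared by exact permutation, and promoters came from RefSeq (GRCm38.p6). The test was checked on simulated data with changes larger than any fitted for the members, so its power for smaller changes was not checked. Replicate libraries differed by more than sampling noise in all 14 pairs. Alternatives were DESeq2 1.42.0, limma-voom (limma 3.58.1), other scalings and filters, a fold change above 2, own-line controls, the compared groups alone, a replicate block, leaving out each library, and leaving out the 3 libraries whose Gabra6 and Cbln3 were above 5 times the median library (chosen after seeing the data). Named were the members, the targeted genes and Rbfox3, the 2 genes of smallest p in each list and comparison, and the 3 genes nearest to Ctcf, except 2 genes chosen by these rules that are not reported here. Pds5a, Pds5b, the list genes not tested and genes that overlap members were named after their values were seen.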

Additional observations from a re-analysis of the deposited data

Results flagged for a closer look

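The log2 ratio of Stag1 to Stag2 in control library 4 was 0.831, farther from the other 4 control libraries (1.11 to 1.22) than Dixon's criterion for 5 samples allows (critical value 0.71). The criterion was passed only narrowly. Of 13 such checks, 1 passed the criterion, and chance alone passes about 1 in 20 groups. Without this library, the log2 difference of the ratio from control was 0.20 in Morc2aΔ/Δn and -0.18 in Mphosph8Δ/Δn, against 0.27 and -0.11 with it. Control library 4 also stood apart in markers of cerebellar granule neurons, with 104 CPM of Gabra6 and 149.7 CPM of Cbln3 against at most 5.71 and 6.44 CPM in the other controls. In Mphosph8Δ/Δn libraries 1 and 2, Gabra6 was at 49.4 and 74.4 CPM and Cbln3 at 68.3 and 92.4 CPM. Without these 3 libraries the log2 differences of the ratio were 0.20 and -0.26. The part of these markers in the ratio was not tested.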

How the results depend on the processing

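The number of members called stayed at 0 in all 4 comparisons under each of 21 alternatives for either knockout and 18 for the lines and the interaction. The tests of ratios could not pass 0.05 after adjustment in any of these designs and say nothing about stability. The replicate block gave 0 called members for both knockouts, with 13 genes called in all for Mphosph8Δ/Δn and 67 for Morc2aΔ/Δn. It could not be fitted for the lines and the interaction. Residuals of the 7 pairs of libraries with the same number correlated between -0.03 and 0.04. Those of the 24 other pairs correlated between -0.06 and 0.04. Several pairs with the same number joined different floxed lines. The pairs of Morc2aΔ/Δn libraries with controls of their own line were among the 24. Residuals in a group of 2 mirror each other, and both Morc2aΔ/Δn libraries correlated with control library 4 at 0.013 and -0.013. The check thus cannot decide whether littermates were paired. Libraries were treated as unpaired, and this choice was not tested. Where a library left a group with 1, that library was assumed to vary like the rest.

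Counts over all genes moved more. They were 21, 16, 32 and 0 for Mphosph8Δ/Δn, Morc2aΔ/Δn, lines and interaction, 55, 309, 183 and 64 with DESeq2, and 110, 236, 245 and 96 with all genes of at least 1 count. For Morc2aΔ/Δn they were also 33 with library totals, 35 with limma-voom, 61 with at least 10 counts in every library, 6 with the compared groups alone, and 10 with own-line controls, which gave 10 for Mphosph8Δ/Δn as well. Leaving out the 3 libraries high in cerebellar granule markers, an alternative chosen after seeing the data, gave 1, 11, 42 and 9. Leaving out single libraries gave 6 to 23, 3 to 54, 11 to 64 and 0 to 7. The cause was not tested. Some signs of small differences turned in Mphosph8Δ/Δn, for Ctcf in 6 and for Smc1a in 7 of 21 alternatives, while Rad21, Stag2 and Smchd1 kept theirs in all 21. With 2 Morc2aΔ/Δn libraries Esco1 was not called at a log2 fold change of -1.97, so changes well above 2-fold could go uncalled.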
